A study of Mus musculus with 2 samples.

Results

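The T cells described here were lymphocytes found among cells sorted as UV-positive (retinoid-autofluorescent) from the mouse lung. They were chosen by their transcripts: at least 2 unique molecular identifiers (UMIs, counts of distinct captured RNA molecules) of Cd3e, Cd3d and Cd3g together, fewer than 20 of S100a8 and S100a9, and none of Cd79a, Cdh5 or Epcam. Of 19622 cells with at least 200 genes and at most 10% mitochondrial UMIs, 121 passed (26 in library 1 and 95 in library 2). Of these, 73 (10 and 63) held less than 0.1% of their UMIs in Col1a1, Col1a2, Col3a1, Mfap4, Dcn and Pdgfra and are the T cells meant in this text. The other 48 (16 and 32) held 0.1% or more and are described apart.

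The study asked which lung cells store retinoids and what those stores do in acute lung injury. Lungs were taken at 3 months of age from male mice of the C57BL/6 wild-type strain and digested, cells were sorted for autofluorescence under UV light, and 2 single-cell libraries of the same condition were made on the 10x Genomics platform. The libraries are replicates of 1 group, so all comparisons were made between cell types inside the same libraries.

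T cells recognise antigen through a receptor that pairs an alpha with a beta chain or a gamma with a delta chain and signals through the CD3 proteins. Cells with the coreceptor CD8 can kill infected cells, while cells with CD4 mostly help other immune cells. Naive T cells circulate through blood and lymph nodes, whereas memory and gamma delta T cells can settle in tissues such as the lung.

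The libraries differed in depth and in T cell content. Library 1 held 9634 kept cells with a median of 4480 UMIs, and library 2 held 9988 with a median of 7577.5. T cells made up 0.104% (95% interval 0.0498 to 0.191) of kept cells in library 1 and 0.631% (0.485 to 0.806) in library 2, a mean of 0.367% with a standard deviation of 0.373 (n = 2). T cells were shallower than the average cell, with medians of 3245 and 4720 UMIs and 1254 and 1507 genes. The 2 files shared 23 barcodes, and none of these belonged to a cell that passed the T cell rule. Nothing in the records states that the libraries came from separate animals, so each p value measures the spread between these samples. The paper describes sequencing on separate occasions, and if these were the 2 libraries, occasion and library cannot be told apart. All intervals and lower limits cover counting error only.

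More cells lay just below the Cd3 threshold than just above it. T cells had a median of 5.5 and 11 Cd3 UMIs, with a highest value of 13 in library 1 and 29 in library 2. With cells of any fibroblast share counted, 2 and 3 had a sum of 2 just inside the limit, and 8 and 14 had a sum of 1 just outside it. Under the fibroblast limit these were 1 and 2 inside and 4 and 5 outside. A limit of 1 would give 14 and 68 T cells. The Cdh5 and Epcam condition removed the most cells, 2 and 35 of the 28 and 130 with enough Cd3. Cdh5 was found in 28 of those in library 2. The fibroblast limit fell in a gap: the highest share among T cells was 0.0505%, and the lowest among the cells set apart was 0.214% in library 1 and 0.161% in library 2. No fibroblast UMI was found in 10 of 10 and 46 of 63 T cells.

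**Figure D1:**
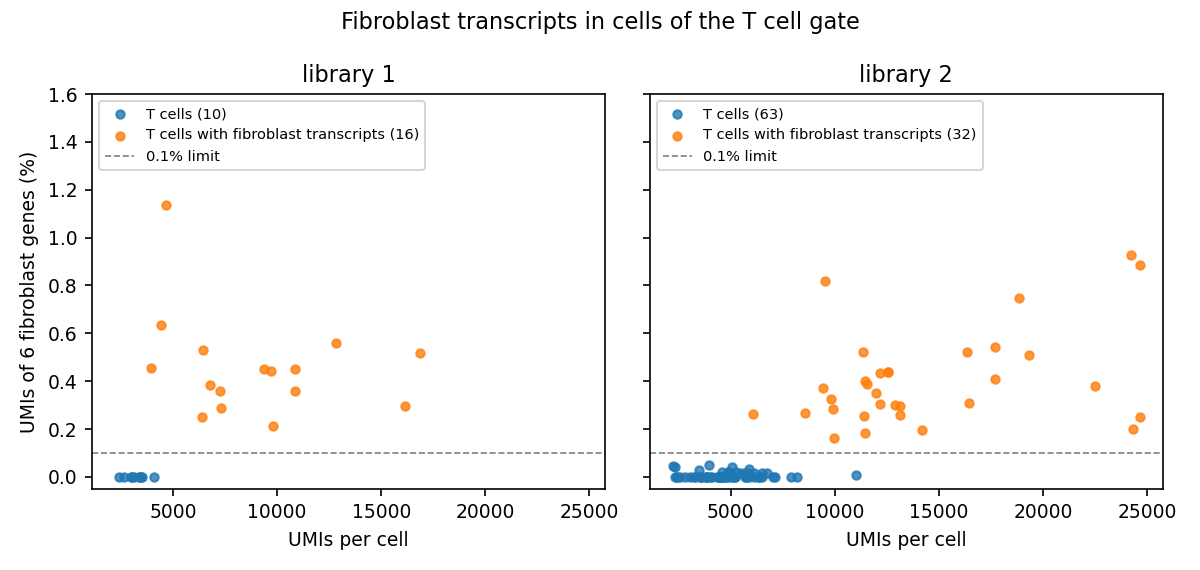
Share of UMIs in 6 fibroblast genes (percent, vertical axis) against UMIs per cell (horizontal axis) for every cell that passed the T cell rule, by library. Each point is a cell, the dashed line marks 0.1%, and the T cells lie under it.

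The label held for transcripts that the rule had not used. Trbc2, a constant segment of the receptor beta chain, stood at 1498 CPM (counts per 1000000 UMIs; 95% interval 1105 to 1986) in library 1 and 1411 CPM (1281 to 1550.3) in library 2, and was found in 10 of 10 and 61 of 63 T cells. Il7r, the receptor for the survival cytokine interleukin 7, stood at 1092 CPM (761 to 1519) and 1260.0 CPM (1137 to 1392), in 9 of 10 and 54 of 63 cells. With every cell thinned to 1000 UMIs, Trbc2 was still found in 70% and 74.6% of T cells and Il7r in 60% and 60.3%. Stromal cells, which do not use these genes and were taken without any Cd3 UMI, had medians of 4243 and 7063 UMIs and held Trbc2 in 0.0253% and 0.0676% of cells and Il7r in 0.0506% and 0.122%. B cells had no Trbc2 UMI in either library. The reads of Trbc1 and Trbc2 are hard to keep apart, because 61.1% of the 50-base windows of Trbc1 transcripts also occur in Trbc2 and 44.0% of those of Trbc2 occur in Trbc1.

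Transcripts of other cell types were few. The rule itself had set Cd79a, Cdh5 and Epcam to 0 and limited S100a8 and S100a9, so these members of the lists say nothing new. Of 10 NK cell markers, 1 was detected in T cells of library 1 and 4 in library 2, with summed levels of 156 and 380 CPM led by Klrk1 and Gzma. The NK receptors' adaptors Tyrobp and Fcer1g and the receptors Klra4 and Klra8 were at 0. Of 10 B cell markers, 1 and 3 were detected (62.4 and 118 CPM, led by Ighm), and Ms4a1 and Pax5 were at 0. Neutrophil markers numbered 0 and 2 of 7 (0 and 16.4 CPM, led by Mmp9), macrophage markers 1 and 2 of 10 (156 and 39.3 CPM, led by Lyz2 at 156 and 36.0) with C1qa, Marco and Adgre1 at 0, and dendritic cell markers 0 and 3 of 7 (0 and 22.9 CPM, led by Cd74) with Flt3, Xcr1 and Itgax at 0. Endothelial markers stood at 31.2 and 45.8 CPM (1 and 4 of 6, led by Pecam1) and red cell and platelet markers at 31.2 and 9.82 CPM (1 and 2 of 6, led by Hba-a1). Epithelial markers were higher, with 2 and 5 of 6 detected at 375 and 265 CPM. Most of this was Sftpc, the surfactant gene of alveolar type 2 cells, at 343 and 154 CPM in T cells and 1976 and 333 CPM in stromal cells of the same libraries. Of 8 innate lymphoid and mast cell markers, 5 and 4 were detected (499 and 131 CPM), led by Rora, a gene that T cells also use.

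Most T cells with a coreceptor transcript had Cd8, and nearly all of them came from library 2. In library 2, Cd8a or Cd8b1 was found in 30 of 63 T cells (47.6%, 95% interval 34.9 to 60.6), Cd4 in 5 (7.94%, 2.63 to 17.6), both in 0 and neither in 28 (44.4%, 31.9 to 57.5). In library 1, 1 of 10 cells had Cd8 (10%, 0.253 to 44.5), none had Cd4 (0%, up to 30.8) and 9 had neither. After thinning to 1000 UMIs the library 2 shares were 25.4% for Cd8 and 3.17% for Cd4, so the shares depended on depth. Cd8b1, the beta chain that conventional CD8 T cells carry, gave 2 and 105 UMIs, and Cd8a gave 0 and 37. B cells, with medians of 2136 and 2627.5 UMIs, had no UMI of Cd8a, Cd8b1 or Cd4, and Cd8b1 was found in 0.0253% and 0.0541% of stromal cells. Runx3, a transcription factor of the CD8 lineage, gave 6 and 28 UMIs but did not follow the coreceptor, with all 6 UMIs of library 1 in cells without Cd8, and Zbtb7b, its counterpart of the CD4 lineage, gave 0 and 6.

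In library 2 transcripts of cytotoxic genes were higher over the 30 cells with Cd8 than over the 28 cells with neither coreceptor. These in turn held more receptor transcripts of gamma delta T cells and more Cxcr6. Of 1716 genes with at least 20 UMIs in the 58 cells together, 26 (1.52%) were at least 4-fold higher in Cd8 cells and 53 (3.09%) in cells with neither. No test was made within 1 library, and a gene could pass the 20 UMI limit through 1 group alone, so counts of genes by direction rest partly on that limit.

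The Cd8 side held genes of killing, and a few of its cells held genes of cell division. Ccl5, a chemokine of effector T cells, stood at 7747 CPM in Cd8 cells and 278 CPM in cells with neither (27.9-fold, 95% interval 19.8 to 40.7). The granule protein Nkg7 was 9.20-fold higher (4.84 to 19.6), the receptor Klrd1 20.4-fold (5.39 to 172), the granzyme Gzma 54.8-fold (9.54 to 2190) and the protease-like Ctsw 10.8-fold (3.46 to 54.1). Ly6c2, a surface protein of memory CD8 cells, was at least 19.2-fold higher and the granzyme Gzmb at least 6.08-fold, each with 0 UMIs in the cells with neither. These values were carried by part of the cells: Ccl5 was found in 15 of 30 Cd8 cells, Gzmb in 6 and Gzma in 4, and 43 of the 79 Gzma UMIs of library 2 lay in 1 cell. Library 1 went the other way: its 1 Cd8 cell held no UMI of the 20 effector genes, and all 41 Ccl5 UMIs lay in 2 cells with neither. In library 2, Birc5 and Stmn1 of 4 cell cycle genes with enough UMIs reached 4-fold on this side, Stmn1 with 64 UMIs in 4 cells. The histone gene Hist1h1b had 143 UMIs in 1 cell. Of the genes with enough UMIs, 7 of 11 effector genes were on this side and 2, S100a4 and S100a6, on the other, while none of 20 receptor and signalling genes and none of 10 naive and memory genes reached 4-fold in either direction.

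On the other side were genes of gamma delta T cells. Trdc, the delta constant segment, had 49 UMIs there and 0 in Cd8 cells (at least 23.3-fold), Tcrg-C1 was at least 10.4-fold and the scavenger receptor Cd163l1 at least 9.97-fold higher, and the transcription factor Maf 35.6-fold (5.83 to 1462). The tissue-homing receptor Cxcr6 was 15.2-fold higher (6.61 to 42.9), the costimulator Icos 9.73-fold (4.11 to 28.1), the neuropeptide receptor subunit Ramp1 28.8-fold (10.8 to 108) and the calcium-binding S100a4 7.74-fold (6.00 to 10.1). The lineage factor Rora was 9.26-fold higher and the interleukin 18 receptor chain Il18r1 4.88-fold. The membrane proteins Tmem176b, at 47.0-fold (12.5 to 396), and Tmem176a, at least 39.9-fold, moved with them. Capg, an actin-capping gene, and the chemokine receptor Ccr2 were higher there as well. Of 3 tissue residence genes with enough UMIs only Cxcr6 reached 4-fold, and Cd69 did not.

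Some genes on that side belonged to the alveolar lining. Ager, a gene of alveolar type 1 cells, was 130-fold higher (22.7 to 5176) in cells with neither coreceptor, and Emp2, Clic5, Cavin2 and Igfbp2 accompanied it. Ager UMIs were found in 0 of 10 and 7 of 63 T cells, and 2 cells of library 2 held 53 and 28 of the 92. The first had 7103 UMIs in all and the second 4860, and both also held Hopx (27 and 9 UMIs). With these 2 cells left out, 24 and 34 of 1626 genes differed, 23 and 33 of them among those counted before. Whether these were T cells captured with material of alveolar type 1 cells was not tested.

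Cells of both libraries were then divided into 4 sets by transcripts seen in the data. These sets were chosen after the values had been seen: Cd8 cells (1 and 30), cells with Trdc (2 and 6), remaining cells with at least 9 S100a4 UMIs (4 and 9), and remaining cells with at most 4 (3 and 18). No remaining cell had a count between 4 and 9. All 5 cells with Cd4 lay in the set with at most 4 S100a4 UMIs, so that set of 21 cells is not free of coreceptor transcripts. The 1 Cd8 cell of library 1 held no UMI of Klf2, Ccr7, Lef1 or the effector genes, so that set is described from library 2. S100a4-high cells made up 40% of T cells in library 1 and 14.3% in library 2, and Trdc cells 20% and 9.52%. Each S100a4-high cell held 9 to 48 S100a4 UMIs with a median of 20, while both the Cd8 set and the S100a4-low set had a median of 0.

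**Figure D2:**
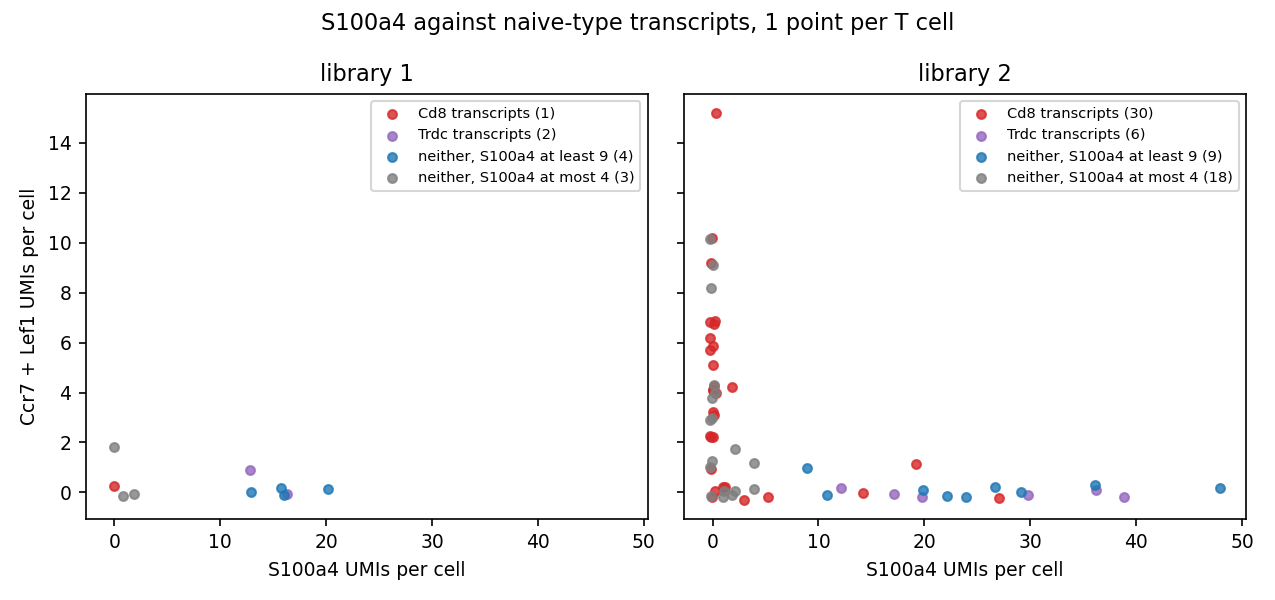
UMIs of Ccr7 and Lef1 together per T cell (vertical axis) against S100a4 UMIs (horizontal axis), by library and coloured by the 4 sets; each point is a cell, shifted by up to 0.3 on each axis. Outside the Cd8 set, cells with many S100a4 UMIs rarely held Ccr7 or Lef1. In the key, neither means without Cd8 or Trdc, and the set with at most 4 S100a4 UMIs includes the 5 Cd4 cells.

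S100a4 and several genes of naive and recirculating T cells were found largely in different cells. At least 1 UMI of Ccr7, which guides naive cells to lymph nodes, or Lef1, a factor of naive cells, was found in 22 of 31 Cd8 cells and 13 of 21 S100a4-low cells, but in 1 of 13 S100a4-high cells and 1 of 8 Trdc cells. Klf2, which keeps T cells in circulation, stood at 1456 CPM in Cd8 cells and 1391 CPM in S100a4-low cells with both libraries summed, against 61.4 CPM in Trdc cells and 0 in S100a4-high cells. Ccr7 followed with 336 and 318 against 0 and 0 CPM, and Dapl1, a gene of quiescent T cells, with 342 and 318 against 0 and 0. Tcf7, a factor of naive and memory cells, was instead present in all 4 sets (197, 344, 92.1 and 263 CPM in the same order), as was S1pr1, the receptor for leaving tissue (179.8, 371, 153 and 87.5 CPM), although in the Trdc set it lay in 1 cell.

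The S100a4-high cells shared several high genes with the Trdc cells and differed from them in others. S100a6, a partner of S100a4 on chromosome 3, stood at 4446 CPM in S100a4-high cells (7632 in library 1 and 3582 in library 2) and 7518 CPM in Trdc cells (7949 and 7425), against 499 in Cd8 and 358 in S100a4-low cells. Cxcr6 (595 and 1319 against 34.8 and 92.7 CPM), Ramp1 (1260.3 and 1135 against 29.0 and 92.7), Icos (630.1 and 429.6 against 34.8 and 79.5) and Maf (350.1 and 399 against 5.80 and 26.5) split the sets in the same way. The receptor genes separated them only in part. Trac, the alpha constant segment, stood at 438 CPM in S100a4-high cells and 61.4 CPM in Trdc cells, and Trdc itself was absent from S100a4-high cells by the way they were chosen. Cd28, the main costimulator of alpha beta T cells, stood at 245 and 0 CPM. Gamma chain transcripts were found in both: Trgv2 in 5 of 13 S100a4-high and 3 of 8 Trdc cells, Tcrg-C1 in 5 and 7, and Tcrg-C2 in 4 and 2. Cd247, the signalling zeta chain, went the other way with 0 CPM in S100a4-high cells, 276 in Trdc cells, 128 in Cd8 cells and 265 in S100a4-low cells. Cd40lg, a ligand of helper T cells, was found in 7 of 13 S100a4-high cells and 0 of 8 Trdc cells. Of the 7 cells with Ager, 4 were S100a4-high and 1 was a Trdc cell. The epithelial marker Cldn18 stood at 263 and 123 CPM in these sets against 0 in both others. Of its UMIs, 11 of 15 and 4 of 4 lay in the 2 cells rich in Ager.

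**Figure D3:**
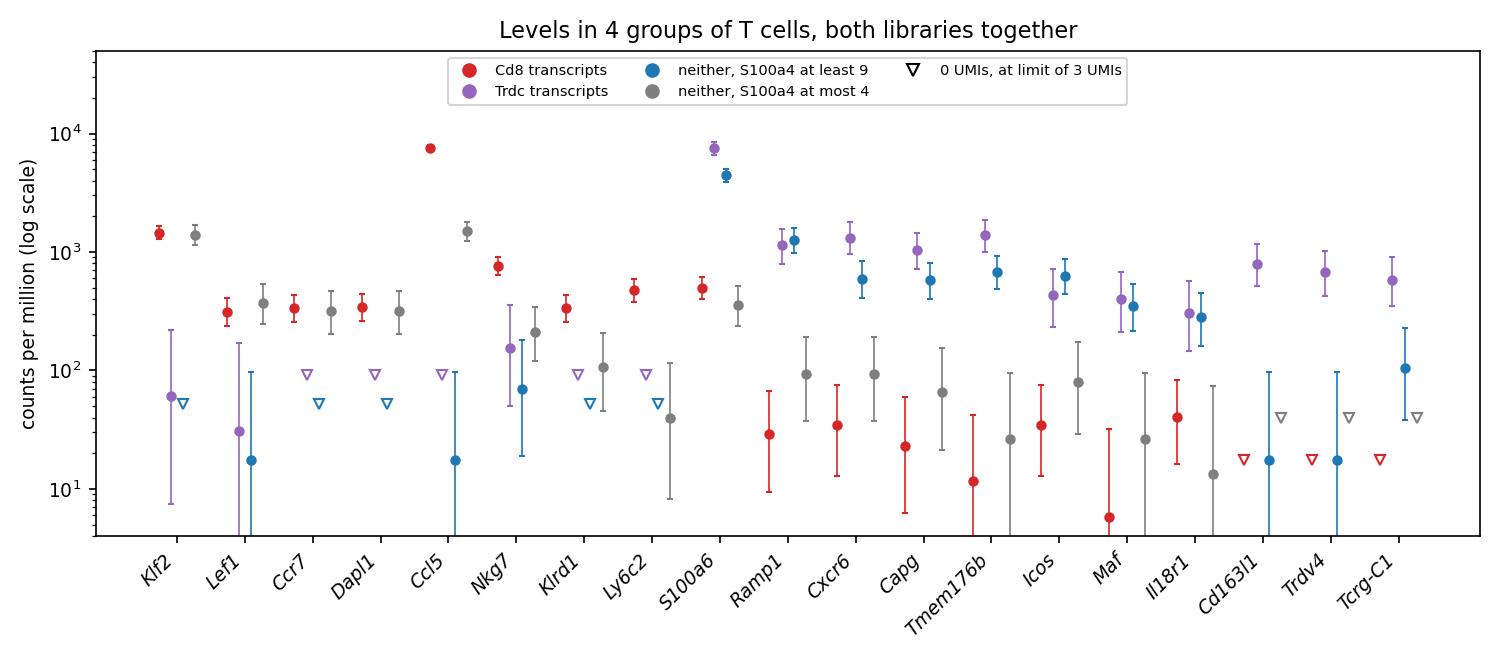
Levels of 19 genes (CPM, logarithmic axis) in the 4 sets of T cells with both libraries summed. In the key, neither means without Cd8 or Trdc, and the set with at most 4 S100a4 UMIs includes the 5 Cd4 cells. Points are sums over the cells of a set, bars are 95% Poisson intervals and open triangles mark 0 UMIs at the level that 3 UMIs would give; Klf2, Lef1 and Ccr7 fall where S100a6 and Cxcr6 rise.

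The Trdc cells shared most of the genes that set them apart. Each of the 8 held 4 to 22 Trdc UMIs, 7 held 2 to 5 UMIs of the variable segment Trdv4, all 8 held Cd163l1 and 7 held Tcrg-C1. All 8 also held UMIs of S100a4, Cxcr6, Il7r, Ramp1 and Tmem176b, and none held Ccl5, Ccr7 or Cd4. Blk, a kinase of interleukin 17 producing gamma delta T cells, stood at 245 CPM in them and was found in 4, and the receptor gene Il23r and the factor Sox13 stood at 123 CPM and were found in 3 each. Of the S100a4-high cells, 3 of 13 also held Il23r and 2 held Blk. The cell without Trdv4 was the Trdc cell rich in Ager. Il17a itself gave only 1 UMI in each library among all T cells. Trdc was found in 0 of 41 and 0 of 64 B cells and in 12 of 7907 and 11 of 7393 stromal cells, but also in 1 of 3 and 4 of 19 NK cells with 1 and 5 UMIs, so it was not confined to T cells. The share of T cells with Trdc was unchanged at 20% and 9.52% after thinning. All 8 held Trbc1 and Trbc2 UMIs as well, so beta chain transcripts did not mark alpha beta cells here.

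Variable segments were sparsely captured. Of 176 listed segments 25 were detected, with 78 UMIs in all: 14 of 128 alpha segments (21 UMIs), 7 of 35 beta (7), 1 of 6 delta (23, all Trdv4) and 3 of 7 gamma (27). Trgv2 gave 22 of the gamma UMIs in 9 cells, and 16 of these lay in 5 S100a4-high cells. No clonal statement can be made from counts this low.

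T cells differed from NK cells in 5 of 15 receptor and signalling genes tested, in Il7r, Cxcr6 and Cd69, and by a much weaker cytotoxic programme. The difference in the Cd3 genes was set by the gates, and these genes were left out of the test. NK cells were taken as the nearest lymphocytes without a rearranged receptor. The contrast was sharpest in the adaptors and inhibitory receptors of NK cells, of which T cells held few or no UMIs. Of 1978 genes tested, 47 (2.38%) were higher in T cells and 45 (2.28%) lower by an edgeR quasi-likelihood test with Benjamini-Hochberg adjustment. The direction was the same in both libraries for 45 of 47 and 44 of 45, and the median log2 change over all genes tested was 0.11. In 18 of the 47 and 10 of the 45 the lower group held 0 UMIs, so a shared direction says little for these genes. A gene could pass the filter on low counts through 1 cell type alone. Counts of genes by direction, against NK and B cells alike, rest partly on that filter. Without the library block the counts were 15 and 24, with DESeq2, which gave an adjusted p for only 137 genes, they were 11 and 4, and without the filter on low counts 19 and 24 of 12912 genes, so the length of the list depended on the method. Of the 47 and 45 genes only 12 and 5 were given an adjusted p by DESeq2, and 5 and 4 of these were called. Of 42 calls among the listed genes and the largest changes, 39 kept their direction but were not called by DESeq2. The NK side rests on 3 cells in library 1 and 19 in library 2. In NK cells of library 1, 3 UMIs equal 617 CPM, so a 0 there says little for genes near or below that level.

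Among receptor and signalling genes, 5 of 15 tested were higher in T cells and none lower, with a median log2 change of 0.88. Trac stood at 187 and 331 CPM against 0 and 0 in NK cells (at least 8.34-fold, adjusted p = 5.25e-05 by the edgeR quasi-likelihood test with Benjamini-Hochberg adjustment). The lineage factor Bcl11b stood at 218 and 199.6 CPM against 0 and 0 (at least 5.30-fold), and Lat, the scaffold of receptor signalling, rose by 3.18 log2 units. Trbc2 differed by 3.00 log2 units, and NK cells of library 2 also transcribed it, at 270.0 CPM. Cd28 was 4.42 log2 units higher, with a fold of 18.5 by summed counts.

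Il7r and the residence genes Cxcr6 and Cd69 were also higher in T cells. Il7r was 6.72 log2 units higher (adjusted p = 5.27e-10 by the edgeR quasi-likelihood test with Benjamini-Hochberg adjustment), and Ccr7 at least 6.39-fold, which made 2 of 7 naive and memory genes with a list median of 1.71. Of 3 residence genes tested, Cxcr6 (624 and 229 CPM against 0 and 0, at least 7.01-fold) and Cd69 (3.07 log2 units) were higher, with a list median of 3.07, or 2.81 with lower limits used. Rgs1 was not called and stood at 822 and 459 CPM in NK cells, above its level in T cells in both libraries. Of 7 cytokine receptors Il7r alone was higher (list median -0.17), and of 11 trafficking genes 2 were higher (-0.64). Icos was at least 4.83-fold higher. S100a4 stood at 3028 and 1532 CPM against 206 and 40.5 CPM (log2 change 5.62). Ramp1, a subunit of the receptor for calcitonin gene-related peptide, stood at 1092 and 281 CPM against 0 and 0 (at least 9.43-fold). Among 8 interferon-responsive genes, Ifi27l2a, Ly6a and Ly6e were higher, with a list median of 0.90.

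The cytotoxic genes were lower in T cells, although not absent. Of 16 effector genes tested, 10 were lower and 1, S100a4, higher, with a median log2 change of -2.27. Ccl5 stood at 1279.8 and 4533 CPM in T cells against 13158 and 26921 in NK cells (log2 change -2.40), Nkg7 at 281 and 481 against 2878 and 3227 (-2.50), Gzmb at 31.2 and 85.1 against 4523 and 689 (-3.67), and the pore-forming Prf1 at 0 and 22.9 against 1234 and 864 (-5.20). Ccl5 UMIs were found in 2 of 10 and 19 of 63 T cells, so part of the cells carried its level. Of the NK markers tested, 8 of 8 were lower, but such genes could enter the test through the NK cell sums alone, so this count says little. Tyrobp stood at 0 and 0 against 5757 and 3038 CPM (at least 361-fold lower, adjusted p = 2.49e-29 by the edgeR quasi-likelihood test with Benjamini-Hochberg adjustment) and Fcer1g at 0 and 0 against 6373 and 3227 (at least 385-fold lower). Of 11 immediate early genes (list median 0.37) and 5 heat shock genes (0.38), none was called.

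T cells and B cells differed on the antigen receptor, antigen presentation and effector axes. More genes were called than against NK cells, but there were 105 B cells and 22 NK cells, and the difference was not tested. B cells present antigen through MHC class II, which mouse T cells scarcely transcribe, and T cells carried effector and tissue receptors that B cells lacked. Of the 1978 genes, 98 (4.95%) were higher in T cells and 102 (5.16%) lower by the edgeR quasi-likelihood test with Benjamini-Hochberg adjustment. The direction was shared by both libraries for 97 of 98 and 100 of 102, and the median over all genes tested was -0.04. The lower group held 0 UMIs for 25 and 35 of these calls, where a shared direction says little. With DESeq2 52 and 48 genes were called. B cells of library 1 held Sftpc at 138071 CPM against 147 in library 2, and Lyz2 at 26836 against 251. With B cells limited to 31 and 63 that held Cd79a and little Sftpc, an alternative chosen after seeing the data, 104 and 106 of 1218 genes were called. Of the earlier calls 76 and 81 could be tested again, and 76 and 74 of these were kept. Lyz2 (log2 change -0.19 from -5.56), Sftpc (-0.65 from -6.24), Fcer1g (-4.11 from -6.40) and Jun (-1.04 from -1.91) were no longer called.

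**Figure D4:**
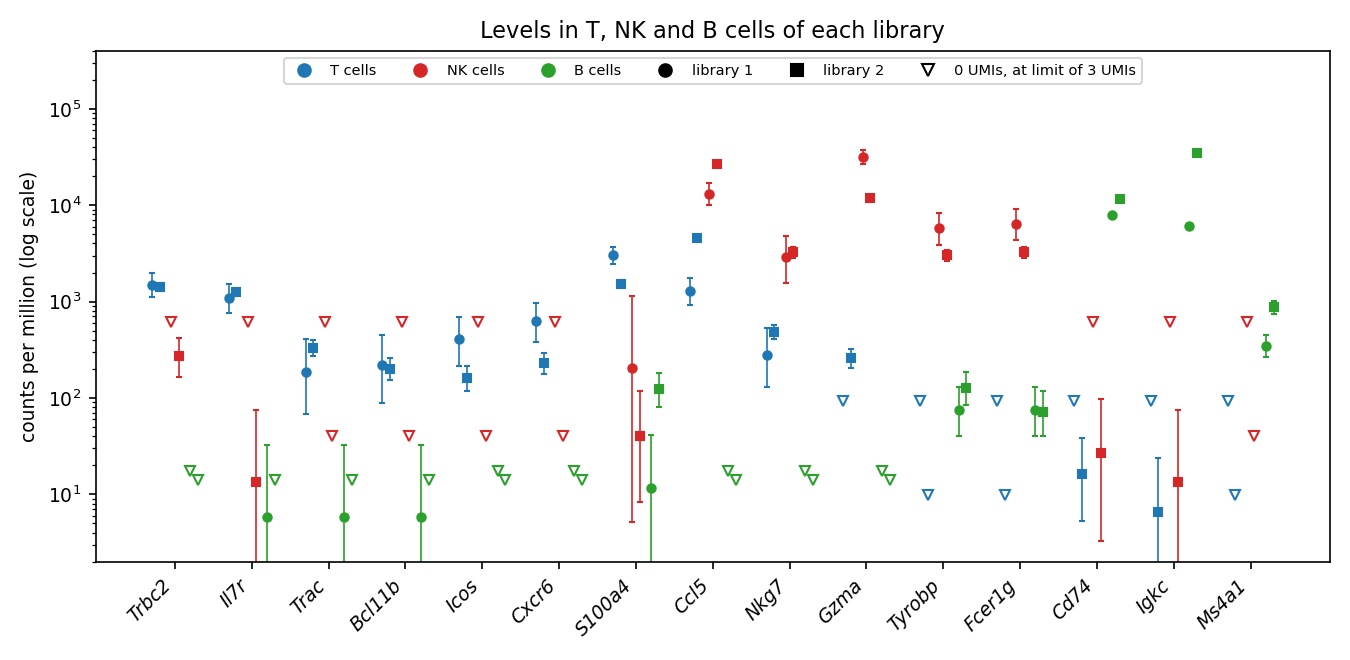
Levels of 15 genes (CPM, logarithmic axis) in T, NK and B cells. Circles are library 1, squares are library 2 and bars are 95% Poisson intervals. Open triangles mark 0 UMIs at the level that 3 UMIs would give. Part of the T cells share Ccl5 and Nkg7 with NK cells. T cells hold no UMI of Tyrobp or Fcer1g and have low levels of the B cell genes.

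The T cell side of this contrast joined receptor genes to effector genes. Of 15 receptor and signalling genes tested, 13 were higher and none lower (list median 6.04, or 4.80 with lower limits), and of 16 effector genes 12 were higher and none lower (4.48, or 3.88). Ccl5 was at least 541-fold higher (adjusted p = 2.95e-28 by the edgeR quasi-likelihood test with Benjamini-Hochberg adjustment), Trbc2 at least 182-fold, Trbc1 at least 78.6-fold, Nkg7 at least 59.2-fold and Trdc at least 29.6-fold, each with 0 UMIs in B cells. Il7r rose by 8.13 log2 units, S100a4 by 4.73 and S100a6 by 2.55. Cytokine receptors rose in 4 of 7 cases (Il7r, Il2rb, Ifngr1 and Il18r1, list median 2.35) and trafficking genes in 4 of 11 with 1 lower (list median -0.03), the risers including Ccr2 (4.92 log2 units), a receptor for recruitment to inflamed tissue. Of 3 glucocorticoid and clock genes only the glucocorticoid receptor Nr3c1 was higher, by 1.81 log2 units, and the list median was -0.33.

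Genes lower in T cells included those of immunoglobulin and antigen presentation. All 7 B cell markers tested and all 3 dendritic cell markers were lower. Such genes could enter the test through the B cell sums alone, so these counts say little. Igkc stood at 0 and 6.55 CPM in T cells against 6014 and 34979 in B cells (log2 change -12.31), Cd74, the chaperone of MHC class II, at 0 and 16.4 against 7842 and 11467 (-9.68), and H2-Aa at 0 and 0 against 1995 and 3339 (at least 308-fold lower). Ccr7 (31.2 and 265 against 231 and 573 CPM, log2 change -1.64) and Klf2 (187 and 1152 against 865 and 2193, -1.51) were also lower, while Tcf7 was at least 29.6-fold higher, so the naive and memory list was split with a median of -0.46. Of 11 immediate early genes, 3 were lower (Jun by 1.91 log2 units) and none higher, but Jun was no longer called with the B cells limited as above. Apoe fell by 5.76 log2 units. With the T cells with fibroblast transcripts kept, the log2 changes of Apoe (1.87), Jun (1.48) and Zfp36 (0.33) turned positive.

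T cells under the fibroblast limit held little of the machinery of retinoid storage, although they were collected in a sort for retinoid fluorescence. Stromal cells were taken at or over that limit, so lower levels of fibroblast genes in T cells follow partly from the choice of cells. The cells of the T cell rule that were set apart held 1.88 and 1.69 Lrat UMIs per cell. Of 24 retinoid genes, 5 were detected in library 1 and 12 in library 2, with summed levels of 375 and 422 CPM led by the corepressor Ncor1 (156 and 229 CPM). Lrat, the enzyme that makes retinyl esters, gave 0 and 0 UMIs, which allows for up to 93.6 and 9.82 CPM, while stromal cells held 317 and 141 CPM. Aldh1a1, which makes retinoic acid, stood at 0 and 19.6 CPM against 711 and 1650.0 in stromal cells. The nuclear receptors were present at low levels, Rara at 93.6 and 42.5 CPM and Rxrb at 62.4 and 32.7, whereas Rarb, Stra6, Crabp1, Cyp26a1 and Cyp26b1 were at 0. These zeros do not set T cells apart. Stromal cells also had 0 UMIs of Stra6 and Cyp26a1. Per stromal cell, Crabp1 gave 0.0210 and 0.0185 UMIs, Cyp26b1 0.00847 and 0.0108, and Rarb 0.00177 and 0.000676. Only Ncor1 of this list had counts enough for the tests, with log2 changes of -0.25 over NK cells and -0.06 over B cells. Genes of lipid handling were also sparse, at 250 and 118 CPM summed over 12 genes. Apoe stood at 31.2 and 13.1 CPM, against 5883 and 5552 in stromal cells, and Lpl, Lrp1 and Dgat2 were at 0. Whether the T cells themselves held retinoid cannot be told from transcripts.

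**Figure D5:**
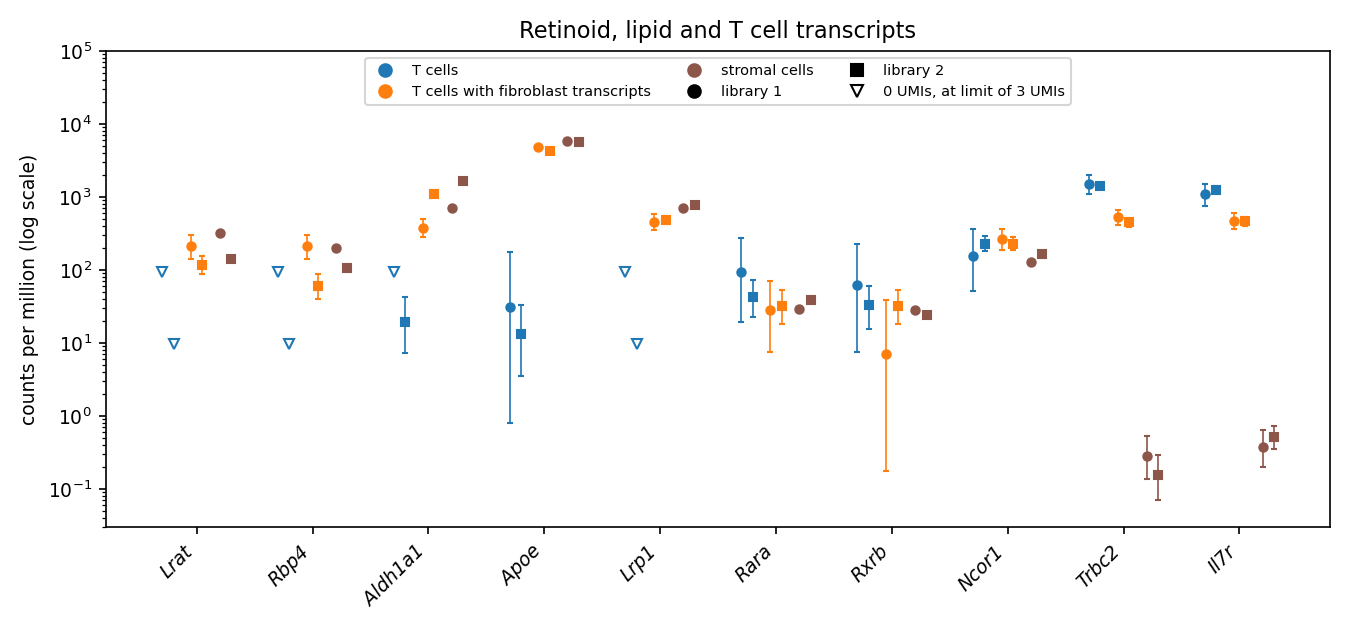
Levels of 10 genes (CPM, logarithmic axis) in T cells, T cells with fibroblast transcripts and stromal cells of each library. Points are sums per library with 95% Poisson intervals and open triangles mark 0 UMIs at the level that 3 UMIs would give; Lrat is at 0 in T cells and close to stromal levels in the cells with fibroblast transcripts.

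The 48 T cells with fibroblast transcripts held about as many UMIs of T cell genes per cell as the T cells. The T cell receptor and signalling genes gave 18.1 and 28.9 UMIs per cell against 19.7 and 28.0 in T cells, and Trbc2 gave 4.69 and 6.44 against 4.80 and 6.84. The 6 fibroblast genes, by which both these cells and stromal cells were chosen, gave 38.9 and 62.3 UMIs per cell, against 30.5 and 55.0 in stromal cells. Median UMIs per cell were 8320 and 12535.5. Lrat stood at 209 and 117 CPM and Apoe at 4821 and 4259. Cd8 transcripts were found in 2 and 8 of these cells, Trdc in 2 and 3, and at least 9 S100a4 UMIs without Cd8 in 10 and 14, or 24 of 48. They made up 0.166% (0.0950 to 0.270) and 0.320% (0.219 to 0.452) of kept cells, and 0.104% and 0.200% with cells over 3 times the median UMIs of T cells left out. Droplets that held a T cell and a fibroblast and cells of mixed content cannot be told apart here.

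The 2 libraries also differed in which T cells they held, with 1 sample each and no test. Library 1 was richer in the transcripts of Trdc and S100a4-high cells: Trdc stood at 905 CPM against 160.4 in library 2, although 22 of its 29 UMIs lay in 1 cell, S100a6 at 4776 against 1502 and the gamma delta list at 2466 against 586 summed. Library 2 was richer in Cd8 and recirculation transcripts, with Klf2 at 1152 against 187 CPM and the naive and memory list at 4127 against 1966. The receptor and signalling list was alike, at 6149 and 5773 CPM.

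The description rests on 73 cells, 10 of them in library 1, and most statements on sets of T cells come from library 2. Cd4 cells were too few, and in only 1 library, to be compared with Cd8 cells. The p values have 2 residual degrees of freedom, and DESeq2 gave an adjusted p to few of the genes called against NK cells. Coreceptor shares depend on depth. The sets by S100a4 and Trdc were drawn from the same values that describe them. Some transcripts are typical of other cell types, such as Sftpc and Ager, and their source was not tested. Whether T cells were sorted for their own fluorescence or beside fluorescent cells was not tested.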

How the data were processed

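The UMI counts were those deposited by the authors, made with Cell Ranger 5.0.1 according to the submitters' processing notes, and coordinates are those of GRCm38.p6 (RefSeq). T cells were named by the rule stated above. NK cells held at least 2 UMIs of Ncr1 and Klrb1c and none of Cd79a, and B cells at least 2 of Cd79a and Cd79b and none of Ncr1 or Klrb1c, both under the fibroblast limit and with the limits on S100a8, S100a9, Cdh5 and Epcam. Stromal cells held no UMI of Ptprc, Cdh5 or Epcam and lay at or over that limit. None of these held a Cd3 UMI. No doublet caller or clustering was used; the gates removed only cells with transcripts of the genes they name. Counts were summed per library and cell type, filtered, scaled by TMM and tested with edgeR 4.0.16 (R 4.3.3) by quasi-likelihood F tests with library as a block, at a Benjamini-Hochberg adjusted p of 0.05. DESeq2 1.42.0 served as an alternative, as did other thresholds of the gates, no filter on low counts, no block, and the T cells with fibroblast transcripts kept. Leaving out T cells with at least 10 Ager UMIs, and B cells without Cd79a or with much Sftpc, was chosen after seeing the data. Sums and intervals used Python 3.11.15. Genes named are those of lists fixed beforehand and, per comparison and direction, the 10 called genes with the largest change that averaged 50 CPM or more in the higher group and pointed the same way in both libraries, without mitochondrial, ribosomal, Gm and gate genes; others were chosen after their values were seen. The genes in each list and the members of the comparison were chosen with earlier results of these data known. A planned comparison of Cd8 over Cd4 cells was not run, because Cd4 cells were found in 1 library only.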

Additional observations from a re-analysis of the deposited data

How the results depend on the processing

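With DESeq2 size factors and the Wald test, 11 genes were higher and 4 lower in T cells than in NK cells (47 and 45 by edgeR), and 52 higher and 48 lower than in B cells (98 and 102). Without the filter on low counts the NK cell counts were 19 and 24, and without the replicate block 15 and 24. With the T cells with fibroblast transcripts kept, 257 genes were higher and 65 lower than in NK cells and 370 higher and 148 lower than in B cells, of 2939 tested, and 5 genes changed sign against B cells: Apoe (log2 change 1.87 from -5.76), Jun (1.48 from -1.91), Zfp36 (0.33 from -2.42), Ifi27l2a (0.0326 from -1.74) and Car2 (0.58 from -5.26). With the 2 cells rich in Ager left out, 34 genes instead of 53 were higher in library 2 cells with neither coreceptor than in Cd8 cells. The cause of these changes was not tested.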

Other observations

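Few T cells were dividing. Mki67, a gene of cycling cells, was found in 3 cells, all of them Cd8 cells of library 2 with 6, 1 and 4 UMIs, and these held 34, 8 and 137 UMIs of the cell cycle list. Foxp3, the factor of regulatory T cells, was found in 1 S100a4-low cell of library 2 with 2 UMIs. Of 17 helper genes 8 and 9 were detected (437 and 167 CPM), and Il4, Il5, Il21, Il22, Il17f and Cxcr5 were at 0. Cd40lg, the helper ligand for B cells, lay in 7 S100a4-high and 5 S100a4-low cells and in no Cd8 or Trdc cell. Of 6 inhibitory receptor genes 3 and 4 were detected (156 and 137 CPM), with Tigit and Havcr2 at 0.

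Immediate early genes, which rise when tissue is digested, summed to 6742 and 4971 CPM in T cells, led by Junb at 2778 and 2006. In T cells with fibroblast transcripts they summed to 20558 and 16728 CPM, but stromal cells were rich in such transcripts too. Junb gave 8.9 and 9.73 UMIs per T cell, 37.1 and 41.4 per cell with fibroblast transcripts and 20.9 and 22.1 per stromal cell. Jun gave 0.1 and 1.29, 24.6 and 37.3, and 22.5 and 28.97 in the same order. Whether the higher sums came from T cell or fibroblast RNA was not tested. Heat shock genes summed to 1623 and 2399 CPM in T cells with Hspa1b at 0. Among the cells with fibroblast transcripts, Cd74 was found in 3 and 6, and 4 of the 48 held at least 20 UMIs of it. Il17a, a cytokine of barrier T cells, gave 23 and 2 UMIs in these cells, 21 of them in 1 cell of library 1.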
